A study of Mus musculus with 16 samples.

Results

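Transcript levels of whole subcutaneous white adipose tissue (scWAT), the fat pad under the skin, were compared between 3 libraries labelled Adipo-HuR KO and 5 wild-type libraries. These 8 of the 16 libraries of the series were chosen by tissue and genotype label, and the other 8 are left ventricles of the same study. All animals were C57BL/6J mice of 28 weeks. The libraries labelled knockout came from mice A24, A26 and A30, and the wild-type ones from A5, A7, A8 and A14, whose hearts were sequenced too, and from A12. Values below are listed in rising order of mouse number within each group. Of the 33641 gene symbols in the tables, the 13682 whose mean over the 8 libraries reached 1 TPM were tested. TPM, the unit of the tables, is the abundance of a gene's transcripts scaled to a fixed total in each library. The sources used here do not give the promoter that drives Cre, the deleted exons, the sex of the mice or whether the wild-type mice carried a floxed allele. Each library is 1 mouse, so the spread within a group holds differences between mice, dissections and library preparations, which cannot be told apart. Differences are means of log2(TPM + 1) in libraries labelled knockout minus those in wild-type libraries, called log2 fold changes where many are summarised.

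HuR, the product of Elavl1, is a ubiquitous RNA-binding protein of the ELAV family. It binds AU-rich elements in the 3′ untranslated regions of messenger RNAs and mostly lengthens their life or aids their translation, in competition with destabilizing proteins such as the ZFP36 family. White adipocytes store triglyceride, release fatty acids by lipolysis and secrete hormones such as leptin and adiponectin. Under cold or adrenergic drive, part of the cells of this depot can turn on Ucp1 and other genes of heat production. The comparison asks which transcripts of fat differ when HuR is to be absent from its adipocytes.

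The tissue carried its defining markers in every library. Adipoq, which encodes adiponectin, stood at 4316, 3956, 5775, 4489.6 and 6919.5 TPM in wild-type libraries, against 5665, 3299.8 and 4483 TPM in libraries labelled knockout. Fabp4, the fatty acid binding protein of adipocytes, ranged over 20854 to 38928 TPM and 24384 to 36272 TPM. The Y-linked genes of the sex-linked list were detected in all 8 libraries, with summed levels of 84.4 to 105 TPM in wild-type mice and 85.0 to 115 TPM in mice labelled knockout. Other tissues were unevenly present. The 30 skeletal muscle markers summed to 209 to 1553 TPM in the wild-type group, and to 6476, 588 and 13291 TPM in A24, A26 and A30. The 17 T cell markers summed to 67.4 to 104 TPM in wild-type libraries, to 90.7 and 77.1 TPM in A24 and A30, and to 1121 TPM in A26. A26 also stood apart over all tested genes, with correlations of 0.84 to 0.885 with the wild-type libraries, where A24 and A30 reached 0.916 to 0.963. Muscle thus marked A24 and A30 and lymphoid tissue marked A26, all labelled knockout, so the design confounds both with the label. No 2 libraries held identical values.

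Elavl1 was not lower in the libraries labelled knockout. They held 42.9, 42.03 and 36.2 TPM, and the wild-type libraries held between 19.0 and 34.5 TPM, so the groups did not overlap and the difference ran against the label (difference 0.61 log2 units with SE 0.22, limma adjusted p = 0.256; exact 2-sided permutation p = 0.0536, smallest possible 0.0179). The direction turned to -0.17 with the means of the muscle and B cell markers as covariates. The muscle mean was high mainly in A24 and A30 and the B cell mean in A26, all labelled knockout. Fits with the muscle mean alone or with both means, here and below, therefore cannot separate tissue content from the label. Whole tissue includes cells outside the deletion, and the values do not show which exons were read. Directions below are therefore between libraries labelled knockout and wild-type, with no statement on the loss of HuR itself. In whole tissue, a change in the share of a cell type cannot be told apart from a change of RNA within its cells.

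Of the 13682 genes, 3 passed the threshold (limma adjusted p under 0.05, 0.0219% of those tested), 2 of them higher (0.0146%) and 1 lower (0.00731%). Fabp3, the fatty acid binding protein best known from heart and muscle, rose to 44.9, 171 and 114 TPM in libraries labelled knockout, from 0.382, 1.93, 2.24, 0.229 and 0.973 TPM in wild-type libraries (difference 5.60 log2 units with SE 0.47, limma adjusted p = 0.0046). The groups lay far apart, with A24 the lowest of the libraries labelled knockout. Fabp3 was highest in A26, which had the least skeletal muscle signal of the 3, below that of the wild-type library A7 (588 against 1553 TPM of summed muscle markers). In A7, Fabp3 stood at 1.93 TPM. Its adjusted p missed the threshold with the muscle marker mean as a covariate (log2 fold change 5.74) and with both marker covariates (3.19). It also missed within the 5 libraries whose file names carry no genotype, 3 wild-type and 2 labelled knockout (5.96). It passed in the other 18 of 21 alternatives. The part of muscle tissue in this difference was not tested further.

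Gm5905, a predicted gene, rose from 0 in 4 wild-type libraries and 0.196 TPM in A8 to 14.03, 22.2 and 10.8 TPM (difference 3.95 log2 units with SE 0.25, limma adjusted p = 0.00091). Gm45396, another predicted gene, fell from 6.21, 4.03, 6.12, 3.50 and 4.05 TPM to 0.304, 0.129 and 0.292 TPM (difference -2.19 log2 units with SE 0.23, limma adjusted p = 0.0241). Neither pair of groups overlapped. Values of predicted genes are uncertain where reads are shared with near-identical copies. The call of Gm45396 ended when any single wild-type library was left out, with differences of -2.28 to -2.11 log2 units. Gm5905 also rose in the hearts of the same study, by 3.06 on the log2 scale (limma adjusted p = 0.000506), with 4 wild-type mice and 1 mouse labelled knockout shared between the tissues.

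**Figure D1:**
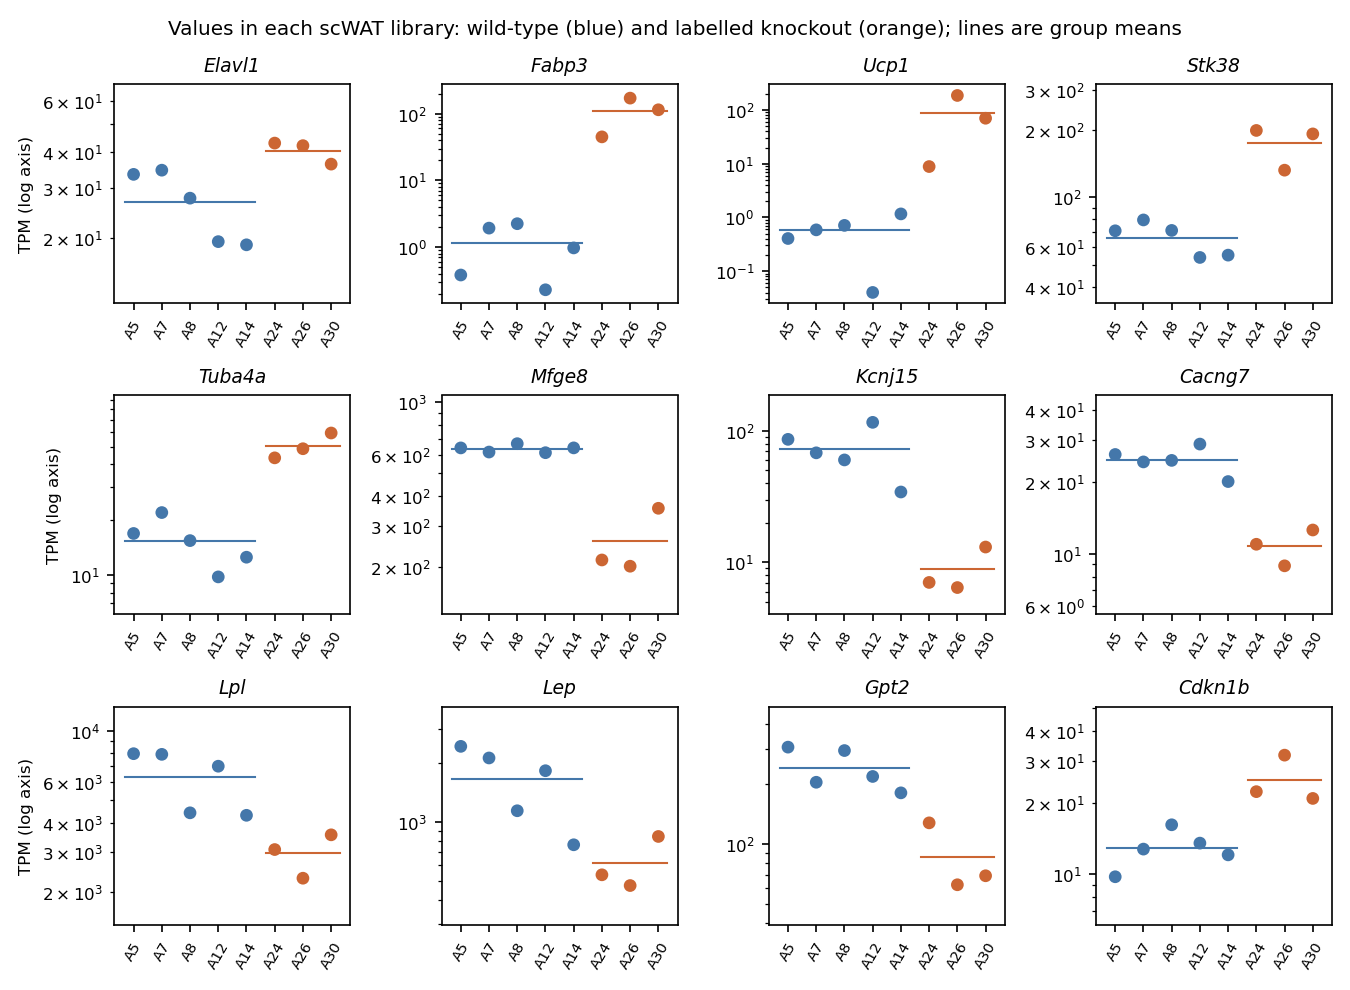
Level of 12 genes in each of the 8 scWAT libraries, in TPM on log axes that differ between panels. Blue points are the 5 wild-type libraries, orange points the 3 labelled knockout, and lines are group means; Elavl1 lies higher and not lower in the orange points, and Fabp3 reaches 44.9 to 171 TPM against at most 2.24 TPM.

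Many more genes lay apart without passing. At p under 0.05 before adjustment, 2138 genes (15.6%) differed, 1109 higher (8.11%) and 1029 lower (7.52%) in libraries labelled knockout. The groups did not overlap for 1407 genes (10.3%), 715 of them higher (5.23%) and 692 lower (5.06%). Over all tested genes the median log2 fold change was 0.03. Counts given below as before adjustment use this limit of p under 0.05. Where a list count has no share beside it, it is to be set against 8.11% higher and 7.52% lower. Among the 1029 lower genes A8 held the lowest wild-type value for 41.6%, where among all 6306 genes with a negative difference it did for 21.6% and A12 for 35.5%. Among the 1109 higher genes it held the highest wild-type value for 42.1%, against 35.7% of the 7376 genes with a positive difference.

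The genes named next were picked for having groups that do not overlap and the smallest p, 14 per direction, so their lack of overlap is no finding. None of them but Fabp3 passed in the fit as described. With all 8 libraries, Stk38 and Tuba4a also passed after median-of-ratios scaling or quantile normalization, and with array weights Stk38, Tuba4a, Shisa4, Kcnj15, Cacng7, Mfge8 and Dlst were among those that passed. On the higher side, Stk38, a kinase of the NDR family, stood at 71.00, 79.3, 71.3, 54.05 and 55.4 TPM in wild-type libraries, against 198, 132 and 191 TPM in those labelled knockout (difference 1.37 log2 units with SE 0.19, limma adjusted p = 0.0692). Tuba4a, an alpha-tubulin, stood at 16.8, 21.9, 15.4, 9.76 and 12.5 TPM and at 43.4, 48.6 and 59.2 TPM (limma adjusted p = 0.0692). A26, the library with least muscle of the 3, was the lowest of them for Stk38 and lay between the others for Tuba4a. Tmem265 stood at 2.42 to 4.08 TPM against 8.14 to 8.96 TPM (limma adjusted p = 0.0721). Atp1b1, the beta subunit of the sodium pump, stood at 2.80, 2.93, 1.75, 1.06 and 1.34 TPM and at 8.27, 18.4 and 8.61 TPM (difference 2.06 log2 units with SE 0.32, limma adjusted p = 0.0994). Fam134b, a receptor for autophagy of the endoplasmic reticulum, stood at 2.08, 1.55, 1.78, 0.832 and 1.42 TPM and at 4.81, 11.2 and 7.94 TPM (difference 1.79 log2 units with SE 0.28, limma adjusted p = 0.0994). Both were highest in A26, the lymphoid-rich library.

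Got1, the cytosolic aspartate aminotransferase, stood at 8.90, 9.78, 10.9, 6.20 and 7.05 TPM in wild-type libraries, against 17.8, 17.1 and 17.03 TPM in those labelled knockout (difference 0.96 log2 units with SE 0.18, limma adjusted p = 0.198). Slc25a12, a mitochondrial carrier that exchanges aspartate for glutamate, stood at 6.41, 6.93, 7.80, 4.57 and 5.10 TPM and at 15.1, 11.3 and 13.2 TPM (difference 1.00 log2 units with SE 0.19, limma adjusted p = 0.198). For Got1 the 3 libraries labelled knockout lay close together, and for Slc25a12 they spread more. Gpt2, the mitochondrial alanine aminotransferase, stood at 307, 205, 295, 219 and 181 TPM and at 128, 62.5 and 69.4 TPM, in the other direction (difference -1.51 log2 units with SE 0.27, limma adjusted p = 0.189). Dlst, a subunit of the oxoglutarate dehydrogenase complex of the citric acid cycle, stood at 129, 140.0, 120.0, 109 and 118 TPM and at 72.9, 79.4 and 77.4 TPM (difference -0.68 log2 units with SE 0.12, limma adjusted p = 0.192). The 3 libraries labelled knockout lay close together for Dlst, which passed in 1 of 21 alternatives.

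The other named genes on the higher side had log2 fold changes of 0.72 to 2.38. Slc28a2, a nucleoside transporter, stood at 14.6 to 20.5 TPM against 28.4 to 36.04 TPM. Ptp4a3, a protein tyrosine phosphatase, stood at 12.8 to 16.2 TPM against 22.1 to 27.6 TPM. Tnfrsf25, a death receptor of the tumour necrosis factor receptor family, stood at 1.75 to 4.34 TPM against 7.14 to 11.1 TPM. These 3 genes differed by modest factors in each library labelled knockout. Shisa4 held 6.38, 4.01 and 9.77 TPM in the libraries labelled knockout, against up to 1.86 TPM in wild-type ones. Asb2, a substrate adaptor of a ubiquitin ligase that is abundant in muscle, stood at 0.363, 3.01, 0.432, 0.446 and 0.692 TPM and at 13.9, 3.77 and 10.6 TPM. For Shisa4 and Asb2, A26 was the lowest of the 3, as for the muscle markers, and the wild-type library with most muscle, A7, was the highest wild-type one for Asb2. The part of muscle tissue in these values was not tested.

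**Figure D2:**
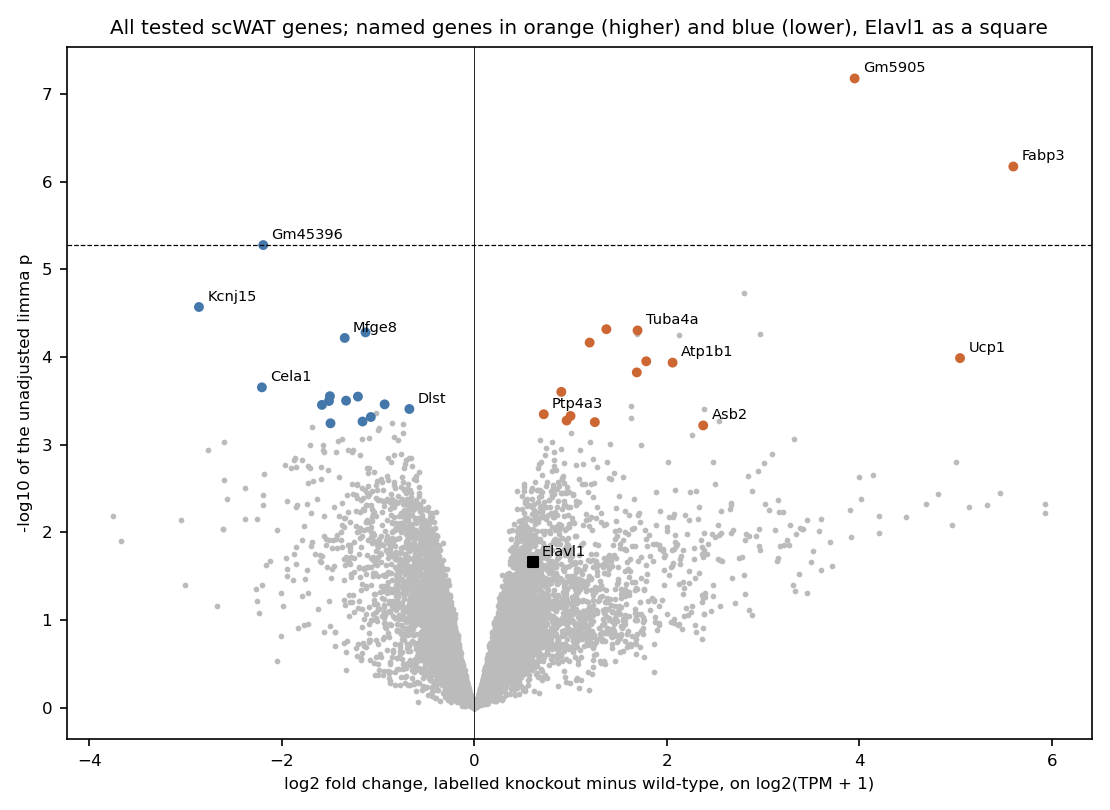
Log2 fold change (labelled knockout minus wild-type, on log2(TPM + 1)) against -log10 of the unadjusted limma p for all 13682 tested genes. Coloured points are the genes named by rule, the square is Elavl1, and the dashed line is the p of the last gene that passed adjustment; 3 genes reach the line.

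On the lower side, Kcnj15, an inwardly rectifying potassium channel, stood at 86.2, 68.1, 60.1, 116 and 34.3 TPM in wild-type libraries, against 7.04, 6.43 and 13.1 TPM in libraries labelled knockout (difference -2.86 log2 units with SE 0.37, limma adjusted p = 0.0692). Mfge8, a secreted glycoprotein that links dying cells to phagocytes, stood at 640.3, 615, 667, 611 and 640.5 TPM and at 215, 202 and 355 TPM (difference -1.35 log2 units with SE 0.19, limma adjusted p = 0.0692). The wild-type values of Mfge8 lay within a narrow band, and of the libraries labelled knockout A30 lay nearest to it. Cacng7, a gamma subunit of the calcium channel family, stood at 26.1, 24.3, 24.6, 28.8 and 20.1 TPM and at 10.9, 8.88 and 12.6 TPM (difference -1.13 log2 units with SE 0.16, limma adjusted p = 0.0692). These 3 genes passed without A26 (limma adjusted p = 0.0228, 0.0322 and 0.0291) and without A30 (0.0169, 0.0046 and 0.0294), but not without A24.

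The remaining lower genes named by rule had log2 fold changes of -2.21 to -0.93, besides Dlst and Gpt2. Cela1, an elastase, stood at 149, 106, 43.7, 87.6 and 72.5 TPM and at 21.6, 11.3 and 22.2 TPM. Mettl7b, a methyltransferase found on lipid droplets, stood at 20.4, 15.3, 8.48, 16.9 and 11.6 TPM and at 3.59, 5.33 and 4.09 TPM. A8 was the lowest wild-type library for both. Hapln3, a link protein of hyaluronan matrix, stood at 4.66 to 10.5 TPM against 0.883 to 2.61 TPM, and Srpx2, a secreted sushi-repeat protein, at 40.9 to 80.1 TPM against 14.4 to 32.9 TPM. Svip, an inhibitor of degradation at the endoplasmic reticulum, stood at 14.1 to 21.2 TPM against 4.87 to 9.43 TPM. Tnpo2, a nuclear import receptor, stood at 21.9 to 36.3 TPM against 13.8 to 15.4 TPM, and Zdhhc2, a palmitoyltransferase, at 14.1 to 20.2 TPM against 6.02 to 10.5 TPM. A26 was the lowest of the libraries labelled knockout for each of these 5 genes. Pqlc3 and Dap stood at 15.1 to 22.1 TPM and 68.96 to 103 TPM in libraries labelled knockout, against 31.5 to 65.4 TPM and 136 to 247 TPM.

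Because HuR binds AU-rich elements, the 3′ untranslated regions of the tested genes were searched on the sense strand for the nonamer TTATTTATT and the pentamer ATTTA. The pentamer lies inside the nonamer and was also counted there. Matches that overlap were each counted, so counts are not numbers of separate sites. Neither word is particular to HuR, since destabilizing proteins compete with it for AU-rich elements, so the counts do not mark HuR targets. Sequences are those of GENCODE M21 on the mouse build GRCm38, with 1 protein-coding transcript per gene, that with the longest coding sequence. Words found only in other transcripts of a gene, such as ones with a longer 3′ untranslated region, are not counted. Of the 13682 tested genes, 12645 had such a transcript. The nonamer was present in 6.95% of them. Windows of 25 bases around the first nonamer are shown for the targeted gene, for the 3 genes of the rule-named set that hold one (Ucp1, Slc25a12 and Ptp4a3), for 4 genes of adipocyte lipid handling and endocrine output (Lep, Lpl, Cd36 and Pnpla2) and for 2 further RNA-binding proteins (Zfp36l1 and Fmr1). Capitals mark the first nonamer, written 5′ to 3′ on the transcript strand.
Elavl1 (chr8:4285790-4285814, minus strand): catgaaaaTTATTTATTtatttatt
Ucp1 (chr8:83298390-83298414, plus strand): atttcatcTTATTTATTgaccacag
Slc25a12 (chr2:71272291-71272315, minus strand): acctattcTTATTTATTtttttgaa
Ptp4a3 (chr15:73758390-73758414, plus strand): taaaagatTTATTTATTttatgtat
Lep (chr6:29071615-29071639, plus strand): ggaagcacTTATTTATTtattctgc
Lpl (chr8:68906673-68906697, plus strand): ctttcaatTTATTTATTagctgtaa
Cd36 (chr5:17782316-17782340, minus strand): acagtatgTTATTTATTgtatttta
Pnpla2 (chr7:141460036-141460060, plus strand): gtgaagaaTTATTTATTtttgccaa
Zfp36l1 (chr12:80108169-80108193, minus strand): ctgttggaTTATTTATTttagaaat
Fmr1 (chrX:68717206-68717230, plus strand): atttctagTTATTTATTctgggaat
Elavl1 itself held 8 nonamers, Lep and Ptp4a3 held 2 each, and the others shown held 1. Fabp3 held neither word in its 238 bases of 3′ untranslated region, nor did Mfge8 in 640 bases and Tuba4a in 650 bases. Of the 13 rule-named higher genes with a region to search, 3 held the nonamer, and of the 14 lower ones none did. A match describes letters and does not show binding.

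The medians of genes with and without the word lay close together. The median log2 fold change was 0.03 in the 879 genes with a nonamer and 0.03 in the 11766 genes without one. At p under 0.05 before adjustment, 8.76% of the genes with a nonamer were higher and 7.51% lower, against 7.65% and 7.67% of those without. Among the 182 genes with 2 or more nonamers, 11.0% were higher and 7.69% lower, and their median was 0.04. For the pentamer the medians were 0.03, 0.03, 0.03 and -0.00035 in genes with none, 1, 2 to 6 and 7 or more. Genes with more words have longer regions (median 335 bases with no pentamer and 3479 bases with 7 or more). In 3 classes of region length (up to 531 bases, up to 1541 bases and longer), the median was 0.05, 0.08 and 0.01 with a nonamer and 0.03, 0.04 and 0.01 without. No test was run on these classes.

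**Figure D3:**
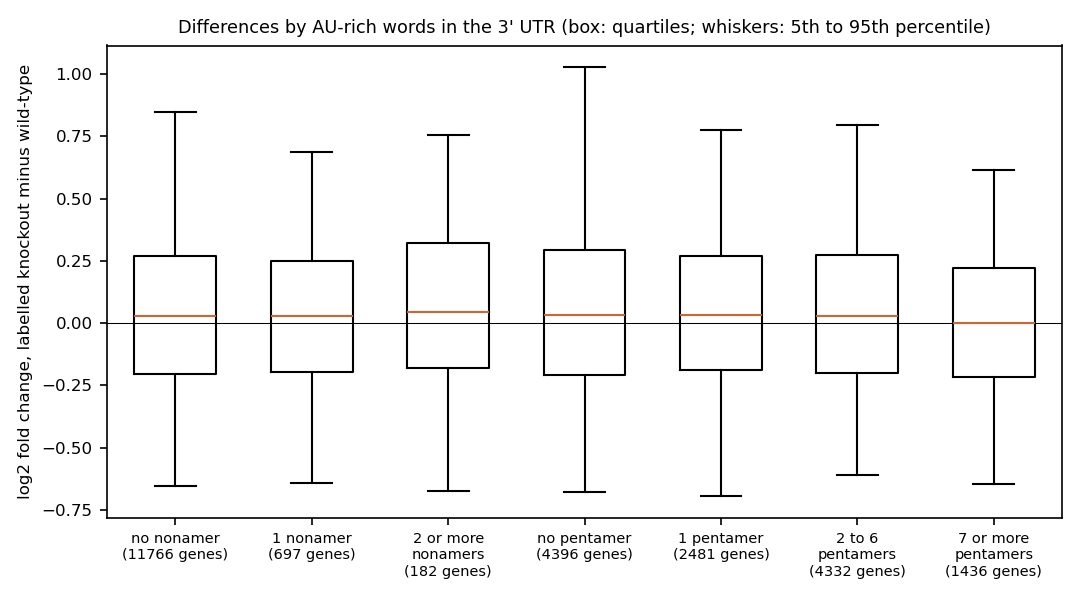
Log2 fold changes of tested genes by the number of AU-rich nonamers (left 3 boxes) or pentamers (right 4 boxes) in the 3′ untranslated region. Boxes give quartiles and the median, and whiskers the 5th and 95th percentiles; all medians lie between -0.00035 and 0.04.

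The list of commonly cited HuR targets had 38 tested members, 12 of which held the nonamer. None passed, 2 were higher and 1 was lower before adjustment (5.26% and 2.63% of the list, against 8.11% and 7.52% of all tested genes). The list's median of 0.21 was 0.05 without A26, 0.33 without A24, and turned to -0.38 with the muscle and B cell covariates. Cdkn1b, an inhibitor of cyclin-dependent kinases, stood at 9.77, 12.8, 16.1, 13.5 and 12.1 TPM in wild-type libraries, against 22.2, 31.6 and 20.8 TPM in those labelled knockout (difference 0.90 log2 units with SE 0.19, limma adjusted p = 0.216). Sirt1, a deacetylase that senses NAD, stood at 7.07, 7.69, 8.17, 6.74 and 5.47 TPM and at 8.87, 9.78 and 9.80 TPM (limma adjusted p = 0.282). The groups of both genes were separate, by a narrow gap for Sirt1. Ccne1, a G1 cyclin, stood at 8.11, 9.83, 3.96, 7.51 and 5.86 TPM and at 1.73, 7.13 and 2.24 TPM, with A26 inside the wild-type range. Jun, a transcription factor of the immediate early class, stood at 28.3, 30.8, 29.4, 22.5 and 30.6 TPM and at 38.3, 31.3 and 35.8 TPM.

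Among 25 tested proteins that bind AU-rich elements, 3 were higher, Elavl1 among them, and 1 was lower before adjustment, and the median of 0.13 turned to -0.17 with both covariates. Tia1, a translational repressor of stress granules, stood at 17.5, 16.9, 18.4, 14.5 and 14.8 TPM and at 23.00, 25.5 and 20.6 TPM (difference 0.47 log2 units with SE 0.14, limma adjusted p = 0.222). Zfp36l1, a destabilizing zinc finger protein of the ZFP36 family, stood at 55.5, 51.2, 49.3, 29.1 and 43.3 TPM and at 71.9, 118 and 59.1 TPM (difference 0.82 log2 units with SE 0.27, limma adjusted p = 0.233), highest in A26. Fmr1, a translational regulator, was the lower member. It stood at 206, 274, 47.4, 250.2 and 81.6 TPM in wild-type libraries, against 31.1, 17.8 and 48.1 TPM in those labelled knockout (difference -2.19 log2 units with SE 0.59, limma adjusted p = 0.216), with A8 and A14 far below the other wild-type mice and A30 just above A8, so that the groups overlapped.

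Of the 20 tested genes of fatty acid binding and uptake, 8 had a positive and 12 a negative log2 fold change, 1 was higher (Fabp3 itself) and 4 were lower before adjustment (20.0%, against 7.52% of all tested genes), and the median of -0.12 was -0.02 without A24 and -0.21 without A30. Vldlr, a lipoprotein receptor, stood at 94.4, 108, 58.6, 81.3 and 74.5 TPM in wild-type libraries, against 46.2, 27.4 and 50.2 TPM in those labelled knockout (difference -1.01 log2 units with SE 0.25, limma adjusted p = 0.216). Lpl, the lipase that frees fatty acids from circulating lipoproteins, stood at 7948, 7896, 4410.5, 7016 and 4302 TPM and at 3059, 2299 and 3542 TPM (difference -1.06 log2 units with SE 0.29, limma adjusted p = 0.217). The groups did not overlap for either gene, and A8 and A14 lay nearest for both. Cd36, a fatty acid translocase, stood at 3299.7, 2943, 2946, 3249.7 and 3108 TPM and at 1928, 1535 and 2952 TPM, with A30 at the wild-type level. Cav1, the coat protein of caveolae, stood at 3011, 2923, 1958, 2396 and 1613 TPM and at 1446, 875 and 1623 TPM, with A30 just above A14.

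Of 24 tested genes of lipolysis and the lipid droplet, 2 were higher and 5 lower before adjustment (8.33% and 20.8%, against 8.11% and 7.52% of all tested genes), with a median of -0.09 that was -0.24 without A30. Npr3, the clearance receptor that removes natriuretic peptides, stood at 582, 542, 372, 553 and 281 TPM and at 106, 76.5 and 298 TPM (difference -1.73 log2 units with SE 0.43, limma adjusted p = 0.216). It was lowest in A24 and A26, while A30 overlapped the wild-type range, and without A30 it passed (limma adjusted p = 0.02). Prkar2b, a regulatory subunit of protein kinase A, stood at 717, 567, 559.5, 588 and 733 TPM and at 399, 327 and 524 TPM, and Mgll, the monoacylglycerol lipase, at 812, 774, 709, 840.1 and 846 TPM and at 607, 384 and 664 TPM. The groups did not overlap for these genes. Of the lipases that start triglyceride breakdown, Pnpla2 stood at 1545 to 3279 TPM against 2631 to 3131 TPM, and Lipe at 1610.1 to 2036 TPM against 1263 to 1758 TPM, with groups that overlap for both.

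In the list of lipogenesis and triglyceride synthesis, 1 of 25 tested members was higher and 1 lower before adjustment, and the median of -0.28 was -0.60 with the muscle covariate and -1.04 with both covariates. Scd1, a stearoyl-CoA desaturase, stood at 21166, 27284, 26383, 28114 and 18997 TPM in wild-type libraries, against 13786, 7127 and 16237 TPM in those labelled knockout (difference -1.04 log2 units with SE 0.33, limma adjusted p = 0.229). Fads1, another fatty acid desaturase, stood at 27.5, 29.6, 37.5, 22.4 and 21.2 TPM and at 49.8, 40.5 and 41.5 TPM (difference 0.67 log2 units with SE 0.19, limma adjusted p = 0.22), in the other direction. Both pairs of groups were separate. The list also differed among wild-type mice. Its mean level relative to the wild-type mean was 0.77 and 0.63 log2 units in A5 and A7, -0.41 to -0.52 in A8, A12 and A14, and -0.01, -0.47 and -0.44 in A24, A26 and A30. Fasn, the fatty acid synthase, stood at 2874, 2846, 421, 607 and 377 TPM in wild-type libraries, against 992, 551 and 338 TPM in those labelled knockout, with A5 and A7 far above the other wild-type mice.

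The thermogenic adipocyte list held the largest share of higher members among the lists of adipose function. Of 24 tested members, 9 were higher before adjustment (37.5%, against 8.11% of all tested genes) and none was lower, 5 had groups that did not overlap (against 5.23% of all tested genes that were higher without overlap), and the median was 0.56. None passed adjustment. Cpt1b and, named after their values were seen, Ckmt2, Cox8b and Cox7a1 are among the 9 and are also expressed in striated muscle. The list's median was 0.50 with the muscle covariate and 0.63 with both covariates, in fits that cannot set muscle apart from the label. Ucp1, the uncoupling protein that lets mitochondria make heat, stood at 0.405, 0.587, 0.711, 0.0401 and 1.16 TPM in wild-type libraries, against 8.85, 186 and 70.2 TPM in those labelled knockout (difference 5.05 log2 units with SE 0.78, limma adjusted p = 0.0994). It passed without A24 (limma adjusted p = 0.00229) and without A26 (0.0228), but not without A30 (0.0802). Elovl3, a fatty acid elongase of brown fat, stood at 1.22, 0.162, 0.0955, 0.4 and 0.611 TPM and at 1.94, 36.1 and 9.23 TPM (difference 2.84 log2 units with SE 0.68, limma adjusted p = 0.216). Cidea, a lipid droplet protein of brown fat, stood at 22.6, 33.8, 40.1, 13.5 and 52.9 TPM and at 52.9, 187 and 95.7 TPM (difference 1.71 log2 units with SE 0.48, limma adjusted p = 0.219). The order of the libraries labelled knockout was the same for the 3 genes, with A26 highest and A24 lowest, and for Cidea A24 was level with the wild-type mouse A14.

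Cpt1b, which brings fatty acids into mitochondria and is shared with muscle, stood at 11.01, 9.22, 3.99, 5.78 and 9.68 TPM and at 11.9, 21.8 and 28.8 TPM. Its order was different, with A30 the highest and A24 the lowest, where muscle markers were highest in A30 and lowest in A26, and the part of muscle was not tested. Transcriptional regulators of the programme, named after their values were seen, had log2 fold changes of 0.24 for Ppargc1a, 0.28 for Ppargc1b, 0.13 for Ebf2 and -0.00057 for Prdm16, and their groups overlapped. The list's mean relative to the wild-type mean was 0.57, 1.05 and 1.05 log2 units in A24, A26 and A30, and -0.47 to 0.28 in wild-type libraries. Its median stayed between 0.47 and 0.66 when any single library was left out.

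**Figure D4:**
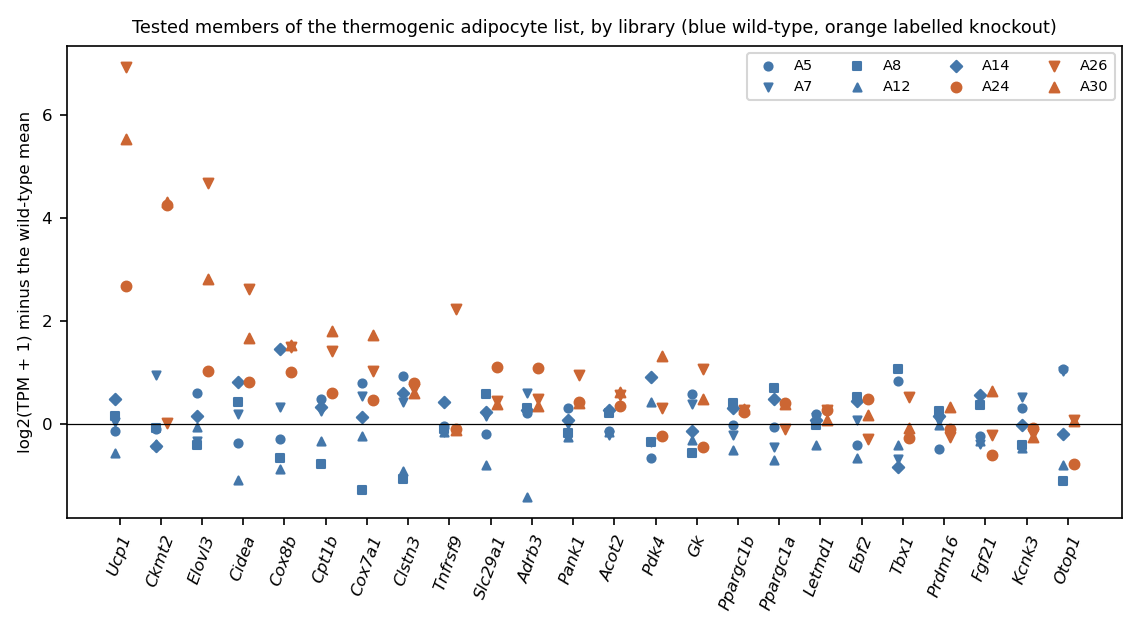
Log2(TPM + 1) minus the wild-type mean for the 24 tested members of the thermogenic list, in order of their log2 fold change. Blue symbols are wild-type libraries and orange symbols those labelled knockout; Ucp1 and Elovl3 lie above all wild-type values in each orange library, and most of the other members overlap.

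Of 47 tested nuclear-encoded subunits of the respiratory chain, none reached p under 0.05 before adjustment in either direction, and the median was -0.03 (0.06 under quantile normalization). The fatty acid oxidation list had 1 of 24 members higher and 1 lower, with a median of -0.0045 (0.08 under quantile normalization). Of 13 mitochondrially encoded transcripts, 2 were higher before adjustment, and the median of 0.29 was 0.02 with both covariates. mt-Nd3, which encodes part of complex I of the respiratory chain, stood at 202, 584, 334, 1237 and 114 TPM in wild-type libraries, against 2083, 3691 and 3598 TPM in those labelled knockout (difference 3.09 log2 units with SE 0.67, limma adjusted p = 0.216). mt-Co3, a subunit of cytochrome oxidase, stood at 2297, 4723, 4345, 7014 and 3233 TPM and at 7525, 6616 and 7576 TPM, with A12 inside the range of the libraries labelled knockout. The share of all TPM in mitochondrially encoded genes was 6.14% to 14.4% in wild-type libraries and 10.6% to 12.3% in those labelled knockout.

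Of 24 tested markers of the mature adipocyte, 1 was higher and 4 were lower before adjustment (16.7% lower, against 7.52% of all tested genes), and the median of -0.19 was -0.07 without A26 and -0.43 with the muscle covariate. Of 22 tested adipokines, 2 were higher and 4 lower (18.2% lower), and the median of -0.0073 was 0.02 under quantile normalization. Lep, which encodes leptin, stood at 2440.3, 2128, 1142, 1831 and 764 TPM and at 536, 473 and 843 TPM (difference -1.35 log2 units with SE 0.39, limma adjusted p = 0.22). Retn, which encodes resistin, stood at 2845, 2702, 1596, 2573 and 1932 TPM and at 1823, 1284 and 1126 TPM (difference -0.72 log2 units with SE 0.26, limma adjusted p = 0.253). The wild-type mice A14 and A8 overlapped the libraries labelled knockout for Lep and Retn respectively. Rbp4, a retinol carrier released by fat, stood at 979, 665, 339.9, 837 and 677 TPM and at 544, 172 and 303 TPM. Fst, which encodes follistatin, an antagonist of activins, stood at 5.94, 8.76, 5.67, 3.15 and 7.26 TPM and at 15.9, 10.7 and 8.09 TPM, in the other direction.

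Of 25 tested genes of insulin signalling and glucose use, 3 were higher and 2 lower before adjustment, with a median of -0.11 that was 0.03 without A26 and -0.33 with the muscle covariate. Grb14, an adaptor that restrains the insulin receptor, stood at 63.3, 78.6, 43.2, 57.7 and 42.3 TPM and at 31.99, 9.66 and 45.8 TPM, with A26 far below the others.

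The extracellular matrix list had the lowest median of the lists of adipose function, with A26 far below the other libraries. Of 35 tested members, none was higher and 9 were lower before adjustment (25.7%, against 7.52% of all tested genes), and 1 had groups that did not overlap. The median was -0.52, and it was -0.21 without A26, -0.78 without A30 and -1.61 with the muscle covariate. Sparc, a matrix glycoprotein that binds collagen, stood at 6052, 6179.8, 3705, 6120.2 and 5362 TPM and at 2635, 1035 and 3537 TPM (difference -1.34 log2 units with SE 0.39, limma adjusted p = 0.219). Col5a3, a chain of collagen V, stood at 552, 426, 102, 299.7 and 206 TPM and at 117, 24.4 and 95.6 TPM, and Col6a2, a chain of collagen VI, at 389, 430.4, 126, 297 and 285 TPM and at 174, 41.1 and 124 TPM. In both collagens A8 was as low as A24 and A30, and A26 lay below every other library. Cyr61, a matricellular target of mechanical signalling, stood at 104, 55.8, 38.4, 33.6 and 24.9 TPM and at 7.89, 27.6 and 15.8 TPM.

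Of 24 tested inflammation genes, 2 were higher and 3 lower before adjustment (8.33% and 12.5%, against 8.11% and 7.52% of all tested genes). The median of 0.29 was -0.03 without A26, 0.64 without A30 and 0.94 with the muscle covariate. Serpina3n, a protease inhibitor of the acute phase, stood at 655, 722, 298, 620.0 and 406 TPM and at 264, 176 and 227 TPM (difference -1.22 log2 units with SE 0.30, limma adjusted p = 0.216). Hp, which encodes haptoglobin, stood at 4001, 4890.2, 2663, 2819.9 and 2626 TPM and at 1948, 1312 and 1739.8 TPM (difference -1.0 log2 units with SE 0.27, limma adjusted p = 0.216). Both were lower in each library labelled knockout than in any wild-type one. Orm1, an acute phase plasma protein, stood at 957, 872, 334, 771 and 753 TPM and at 419.7, 281 and 345 TPM, with A8 inside the lower group. Ccl8, a monocyte chemokine, stood at 54.96, 24.1, 81.7, 5.34 and 76.1 TPM and at 215, 179 and 96.8 TPM (difference 2.14 log2 units with SE 0.78, limma adjusted p = 0.26), higher in the libraries labelled knockout. In the 24 tested interferon response genes, 3 were higher (12.5%) and 1 lower (4.17%), and the median was 0.27. Ifit3 stood at 32.5 to 42.4 TPM against 22.6 to 32.4 TPM, while the sensor gene Ddx58 stood at 14.2 to 20.1 TPM against 20.4 to 23.9 TPM and Stat2, a signal transducer, at 17.1 to 23.1 TPM against 24.8 to 26.5 TPM, all with small gaps.

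Of 23 tested genes of efferocytosis, the clearance of dying cells in which Mfge8 acts, 1 was higher and 4 lower before adjustment. These are 4.35% and 17.4% of the list, against 8.11% and 7.52% of all tested genes. The median was 0.02, with the sign turning under quantile normalization (-0.07), without A24 (-0.09), with the muscle covariate (-0.35) and with both covariates (-0.58). Itgb5, an integrin subunit that binds Mfge8, stood at 140.1, 130.5, 91.8, 116 and 107 TPM and at 87.6, 32.5 and 81.9 TPM (difference -0.90 log2 units with SE 0.31, limma adjusted p = 0.246). Anxa1, which encodes annexin A1, stood at 754, 633, 402, 582 and 336 TPM and at 295, 169 and 409 TPM. In the channel list, Kcnj15 and Cacng7 were 2 of 3 members lower, and Cacnb1 and Itpr3 were 2 of 3 higher, of 26 tested. Each direction held 11.5% of the list. Itpr3, a calcium release channel, stood at 2.53, 2.44, 3.41, 1.75 and 2.61 TPM and at 4.69, 8.98 and 4.34 TPM. Cacnb1, a beta subunit of muscle calcium channels, stood at 0.949, 1.35, 1.72, 1.48 and 1.70 TPM and at 5.13, 2.90 and 6.27 TPM. Among the libraries labelled knockout this is the order of the muscle markers. A7, the wild-type library with most muscle, held 1.35 TPM, below the wild-type median of 1.48 TPM. The part of muscle was not tested.

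Clock and immediate early genes are known to respond to time of day and handling. Of 19 tested clock genes, 1 was higher before adjustment. Arntl, a core activator of the clock, stood at 2.86, 3.04, 1.00, 3.22 and 2.18 TPM and at 4.48, 4.70 and 7.50 TPM (difference 0.94 log2 units with SE 0.29, limma adjusted p = 0.225). Of 22 immediate early genes, 2 were higher and 1 lower (9.09% and 4.55%, against 8.11% and 7.52% of all tested genes). The median of 0.42 was 0.07 without A26, 0.65 without A24 and 1.03 with the muscle covariate. Nr4a1, an orphan nuclear receptor, stood at 2.93, 3.29, 2.73, 2.41 and 5.91 TPM and at 6.28, 14.2 and 7.50 TPM (difference 1.18 log2 units with SE 0.30, limma adjusted p = 0.216). Klf2, a transcription factor induced by flow and stress, stood at 20.9, 21.3, 34.9, 22.1 and 36.5 TPM and at 49.4, 57.7 and 36.1 TPM, and A14 overlapped the libraries labelled knockout. The sources used here give no collection times.

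Of 17 tested endothelial markers none reached p under 0.05 before adjustment, and the median of 0.04 was 0.38 without A26, -0.09 without A30 and -0.61 with the muscle covariate. Of 22 progenitor and fibroblast markers, 1 was higher and 1 lower, and the median of 0.19 was -0.10 without A24 and 0.50 without A26. Dpp4, a marker of early adipose progenitors, stood at 5.55, 11.2, 13.8, 4.14 and 14.2 TPM and at 22.8, 22.6 and 22.9 TPM (difference 1.27 log2 units with SE 0.36, limma adjusted p = 0.22). Col15a1, a collagen of basement membranes and of committed progenitors, stood at 588, 577, 81.3, 235 and 219 TPM and at 146, 29.9 and 73.8 TPM. Of 13 markers of smooth muscle and pericytes, Acta2, the smooth muscle actin, stood at 359, 246, 129, 275 and 183 TPM and at 47.2, 31.7 and 158 TPM (difference -1.84 log2 units with SE 0.50, limma adjusted p = 0.216), and it passed without A30 (limma adjusted p = 0.0303). Des, which encodes desmin and is shared with skeletal muscle, stood at 15.3, 24.02, 14.7, 7.58 and 11.5 TPM and at 73.6, 32.6 and 139.5 TPM. The list shares given next stand against 8.11% higher and 7.52% lower among all tested genes. The 20 tested macrophage markers had 1 higher (5.0%) and 1 lower (5.0%), and a median of 0.31 that was 0.04 without A24. Of 9 mast cell markers 2 were higher (22.2%), and the median of 1.08 was 0.69 to 1.34 when 1 library was left out. Of 7 skin and hair follicle markers 3 were higher (42.9%), with a median of 0.93 that was 0.55 without A26. Of 9 nerve markers 2 were higher (22.2%) and 1 lower (11.1%), with a median of 0.47 that was 0.15 without A24. No neutrophil marker of 6 reached p under 0.05 before adjustment. Of 28 genes of endoplasmic reticulum stress 2 were higher (7.14%) and 1 lower (3.57%), and of 25 cell cycle genes 1 was lower (4.0%). The 5 tested mammary epithelial markers had a median of 0.16 (0.02 without A24), and the markers of red cells summed to 1753 to 32493 TPM in wild-type libraries, highest in A12, and to 1919.5 to 6016 TPM in those labelled knockout.

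Markers of tissues beside fat moved with the label in single libraries. All 30 tested skeletal muscle markers had a positive log2 fold change, with a median of 2.99. At p under 0.05 before adjustment 28 of them were higher (93.3%, against 8.11% of all tested genes), and none passed adjustment. Members low in wild-type libraries, such as Cacna1s, reached the filter of 1 TPM only through those labelled knockout. Their mean had to be higher there. Myh4, a myosin of fast fibres, stood at 1.91, 37.2, 0.124, 0 and 0.0143 TPM and at 270.2, 13.9 and 389.9 TPM. Cacna1s, the voltage sensor of skeletal muscle, stood at 0.234, 1.01, 0.184, 0.107 and 0.193 TPM and at 10.5, 3.91 and 18.1 TPM (difference 2.97 log2 units with SE 0.42, limma adjusted p = 0.0692). Muscle was highest in A30 and A24, while A26 held less Myh4 than the wild-type mouse A7. Single lymphoid markers were high in A26. The B cell gene Fcrla held 1.14, 34.6 and 0.633 TPM in the libraries labelled knockout, against up to 1.08 TPM in wild-type ones. The T cell gene Cd3d held 1.65, 50.5 and 2.53 TPM, against up to 1.98 TPM. Ccl19, a chemokine of lymph node stroma, held 2.68, 142 and 1.10 TPM, against up to 3.12 TPM. The 14 B cell markers summed to 153 to 1635 TPM in wild-type libraries. In A24, A26 and A30 they summed to 737, 1859 and 160 TPM, with A26 just above the highest wild-type sum. The mean log2 level of these markers in A26 stood 4.42 units above the wild-type mean. The medians of the B cell, T cell and lymph node stroma lists were 1.52, 1.51 and 1.99, and -0.15, 0.18 and 0.08 without A26. Some members, such as Blk, Cr2 and Cd8a, reached the filter only through A26 and were not tested without it. The medians with and without A26 thus rest on different members. No marker of these 4 lists was at 0 in all libraries.

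The number of genes past the threshold moved with these libraries. Without A26, 124 genes were higher and 6 lower, and 19 of the 124 were skeletal muscle markers. The muscle list held 30 of the 13682 genes tested with all libraries. Without A30, 41 were higher, of which 37 were immunoglobulin genes, and 34 were lower. That fit rests on A24 and A26, and the share of immunoglobulin genes among all tested genes was not counted. Without A24, 8 were higher and 2 lower. Fabp3 and Gm5905 passed in each of these fits. With both marker means as covariates no gene passed the threshold (255 higher and 361 lower before adjustment). Those means are confounded with the label, so this fit cannot separate them from it. The part of muscle and lymphoid tissue in the other differences was not tested.

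**Figure D5:**
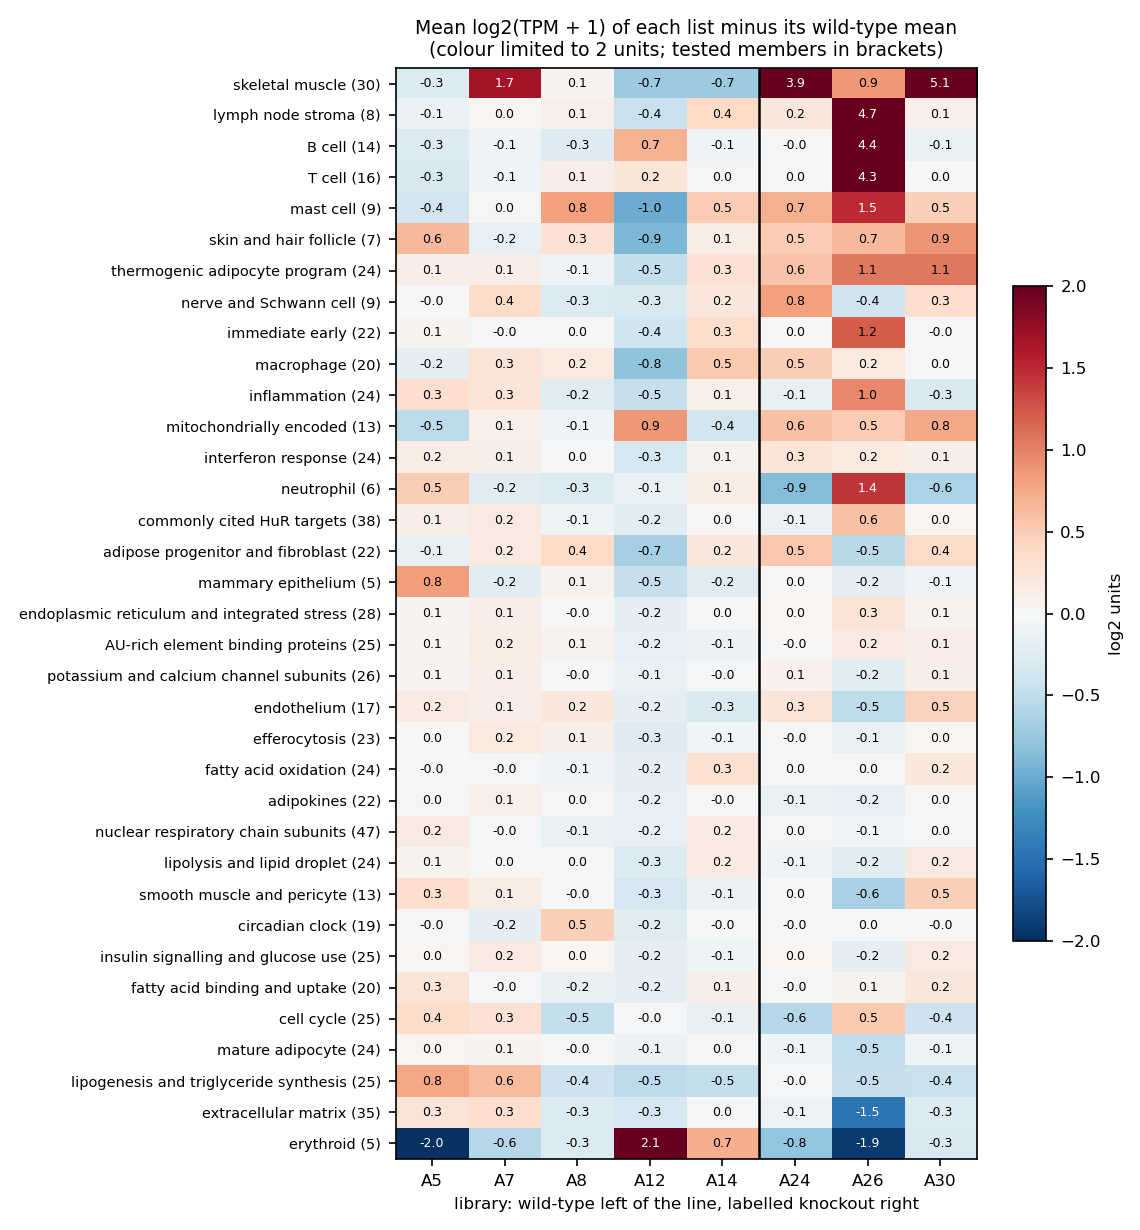
Mean log2(TPM + 1) of the tested members of each list with 5 or more of them, minus the mean of the wild-type libraries, in each of the 8 libraries. Skeletal muscle reaches 3.87 and 5.09 log2 units in A24 and A30, the T cell, B cell and lymph node stroma lists 4.30 to 4.65 in A26, and the thermogenic list 0.57 to 1.05 in the 3 libraries labelled knockout.

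The heart libraries of the same study allow a test of which differences were larger or smaller in fat. An interaction of tissue and genotype was fitted over all 16 libraries, on 11536 genes whose mean reached 1 TPM in both tissues, and 7 genes passed (0.0607%), 6 with a more positive difference in scWAT (0.052%) and 1 with a more negative one (0.00867%). For Fabp3 the scWAT difference exceeded the heart difference by 5.26 log2 units (SE 0.499, limma adjusted p = 0.000102). Hearts held 2565 to 3409 TPM of Fabp3 in wild-type mice and 3644 to 3988 TPM in mice labelled knockout. On the log2 scale the same gain in TPM counts for more in scWAT, where levels of Fabp3 were far lower. Fam134b differed by 2.45 (limma adjusted p = 0.0129) and Ybx2, a Y-box RNA-binding protein, by 2.43 (limma adjusted p = 0.0353). In scWAT, Ybx2 stood at 8.72, 5.89, 10.1, 6.76 and 9.71 TPM and at 15.3, 14.4 and 15.8 TPM. The muscle genes Cacna1s and Asb2 differed by 3.79 and 3.47 (limma adjusted p = 0.00268 and 0.0364). Their scWAT differences were 2.97 and 2.38 log2 units, and their heart differences were -0.83 and -1.09 (limma adjusted p = 0.142 for both). Part of each interaction thus lay in lower heart values. The part of skeletal muscle in them was not tested.

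Kcnj14, an inwardly rectifying potassium channel, had the negative interaction of -4.82 (SE 0.751, limma adjusted p = 0.0161). In hearts it rose from 0.351 to 0.815 TPM to 16.1 to 25.8 TPM (limma adjusted p = 2.8e-05). In scWAT it stood at 26.7, 25.4, 3.96, 25.2 and 16.8 TPM in wild-type libraries, against 14.4, 1.97 and 14.03 TPM in those labelled knockout, groups that overlap. The interaction counts depended on single libraries. Without the heart A29, 264 genes were positive and 2599 negative, and without the scWAT library A26 the counts were 89 and 5. Of the 16 libraries, 5 mice gave both tissues, and only 1 of these was labelled knockout.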

How the data were processed

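RNA of flash-frozen tissue was sequenced from Illumina TruSeq libraries, per the labels' protocols. The authors deposited 1 table of TPM values per library, 1 row per gene symbol, per the file headers, and each table sums to 1000000 TPM. The aligner, quantifier, annotation and build were not given in the sources used here. TPM keeps no read depth, so depth and counting error are unknown.

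Genes whose mean over the 8 libraries reached 1 TPM were tested on log2(TPM + 1) with limma 3.58.1 (R 4.3.3), with Benjamini-Hochberg adjustment over all 13682 genes and a threshold of 0.05. Fold changes on this scale understate changes of low genes. Single values were also tested by exact permutation over 56 assignments. The difference from heart was an interaction term over 16 libraries. Named genes were Elavl1, those past the threshold, 14 per direction with the smallest p among genes with separate groups and at least 5 TPM in the higher group (without predicted, immunoglobulin, muscle list and sex-linked genes), up to 4 per list by smallest p, a short set that may always be named (Adipoq, Lep, Ucp1, Lpl, Pnpla2, Lipe, Fasn, Cd36, Fabp3, Fabp4 and Mfge8 here), and up to 5 per direction for the interaction. Members and lists were chosen with earlier results of these data known. AU-rich words were searched in GENCODE M21 (GRCm38) transcripts, taking the longest coding sequence per gene. Tables and figures used Python 3.11.15, pandas 2.3.3, numpy 2.4.6 and matplotlib 3.10.9. The model was tested on simulated data. Alternatives were other pseudocounts, filters, scalings, weights and covariates, and leaving out each library. The values of 1 gene that the rule names are not reported here.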

Additional observations from a re-analysis of the deposited data

Results flagged for a closer look

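Among 91 genes checked in the 5 wild-type scWAT libraries, 7 had 1 library far from the other 4 by Dixon's criterion, which chance alone meets in about 1 of 20 groups. The high library was A8 for Gm5905 (0.196 TPM), where the other 4 were at 0 so that any value above 0 meets the criterion, and A7 for Asb2 (3.01 TPM) and Cacna1s (1.01 TPM). The low library was A12 for Jun (22.5 TPM) and A8 for Sparc (3705 TPM), Orm1 (334.5 TPM) and Kcnj14 (3.96 TPM). A7 is also the wild-type library with the highest summed muscle markers (1553 TPM). The difference between labels differed between scWAT and heart, by the limma interaction, for Fabp3 (5.26 log2 units), Cacna1s (3.79), Asb2 (3.47), Fam134b (2.45), Ybx2 (2.43) and Kcnj14 (-4.82).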

How the results depend on the processing

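With all 8 libraries 2 genes passed as higher and 1 as lower. The counts of higher and lower genes were 5 and 1 with no filter, 1 and 0 with a filter of 5 TPM, 4 and 1 with median-of-ratios scaling or quantile normalization, and 66 and 14 with array weights. They were 2 and 0 with a pseudocount of 5, the name style covariate or the skeletal muscle covariate. They were 0 and 0 with the muscle and B cell covariates, or in the 5 libraries whose names carry no genotype (444 and 433 at an unadjusted p under 0.05, limma). Those 5 are 3 wild-type libraries and 2 labelled knockout, so fewer genes can pass in that fit. Leaving out 1 library gave 2 to 124 higher and 0 to 34 lower genes, with 124 and 6 without A26, 41 and 34 without A30, and 8 and 2 without A24. The cause of these changes was not tested. Elavl1 stood at 0.51 to 0.71 when 1 library was left out and turned to -0.17 with both covariates.

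Interaction counts, 6 positive and 1 negative, were 73 and 101 with median-of-ratios scaling. Leaving out 1 library gave 4 to 264 positive and 1 to 2599 negative genes, the highest without the heart library A29. With the mouse as replicate block they were 6 and 1, at a block correlation of -0.0435. The interaction without a block ignores that 5 mice gave both tissues, 4 wild-type and 1 labelled knockout. Within scWAT no paired analysis was possible, because no mouse is in both groups.

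Single genes that changed sign did so mostly with both covariates: mt-Nd3 (-0.46), mt-Co3 (-0.12), Adipoq (1.11), Sirt1 (-0.14), Ddx58 (-0.024), Myh4 (-1.56) and Cd3d (-0.64). Adipoq was -0.37 to 0.017 when 1 library was left out, the highest without A26. Fabp4, at -0.02 with all libraries, was 0.092 with quantile normalization, 0.018 without mitochondrial genes, 0.12 with array weights, 0.13 and 0.71 with 1 and both covariates, 0.089 in the 5 libraries, and -0.18 to 0.10 when 1 library was left out. The mitochondrially encoded list has no value where those genes are left out.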
